A study of Homo sapiens with 4 samples.

Results

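Binding of the interferon regulatory factor IRF3 was mapped by chromatin immunoprecipitation and sequencing (ChIP-seq) in MM1.S, an established human multiple myeloma cell line, cultured without any treatment. The series holds 4 samples, namely 2 IRF3 ChIP libraries and 2 input libraries of sheared chromatin, numbered replicate 1 and replicate 2. Nothing in the labels says whether the replicates came from separate cultures, and no second condition, antibody or IRF3-deficient control was analysed here. Described below are the shared IRF3 regions that lie deep inside protein-coding genes. A shared region is a merged interval with a called peak from both ChIP replicates. It was counted as a gene-body region when its summit lay inside a RefSeq coding gene span, over 10 kb from every coding gene end and over 1 kb from every long noncoding RNA (lncRNA) gene end. Of 32246 shared regions, 8140 met these conditions (25.2%, exact 95% binomial interval 24.8% to 25.7%). For comparison, 8221 shared regions lay outside coding genes and over 10 kb from coding gene ends, and 9161 lay within 1 kb of a coding gene end. The regions were chosen by their peak calls in both replicates, with the summit selected on fold enrichment, so peak values and positions are given as a description, and differences between classes were not tested.

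IRF3 is a transcription factor that is phosphorylated by TBK1 downstream of cytosolic nucleic-acid sensors, enters the nucleus and activates type I interferon and antiviral genes. Its binding sites, interferon-stimulated response elements, hold repeats of GAAA. Binding inside gene bodies can fall on intronic enhancers, on alternative promoters of the same gene, or on genes nested in an intron. Plasma cells, from which myeloma arises, keep a transcription programme with PRDM1 and IRF4 at its head and a large secretory apparatus.

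Many of the strongest gene-body regions were not far from every start of transcription, but lay on annotated start sites inside the gene span. Such starts are called internal by their place in the span only. Whether they are main or minor starts of their genes was not examined. RefSeq start windows, which run from 250 bases before to 50 bases after a start site, are shown in GRCh38.p14 for 8 genes whose start is covered by a gene-body region. SQSTM1, LPIN1, NFKBIZ and PRDM1 are shown because their regions were among the strongest, and CANX because it encodes an endoplasmic reticulum chaperone of secretory cells. WIPF1, AIM2 and RSAD2 are shown because their windows hold a GAAA repeat. These windows were chosen after their values were seen. Capitals mark matches, on either strand, to a pair of GAAA with any 2 or any 3 bases between them, to GGAA followed by any 2 bases and GAAA (an ETS-IRF composite), or to TGANTCA (the AP-1 type). They also mark GGAAGT (an ETS core), CACGTG (an E-box) and TGACGTCA (a cyclic AMP response element). Windows on the minus strand are written 5′ to 3′ along the gene.
SQSTM1 chr5:179820655-179820954 plus strand: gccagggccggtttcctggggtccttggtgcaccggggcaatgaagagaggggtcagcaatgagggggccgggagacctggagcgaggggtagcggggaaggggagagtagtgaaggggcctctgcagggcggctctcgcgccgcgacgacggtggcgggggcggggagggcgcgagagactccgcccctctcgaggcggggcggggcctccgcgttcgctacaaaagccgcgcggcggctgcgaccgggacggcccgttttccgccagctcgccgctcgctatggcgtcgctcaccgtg
LPIN1 chr2:11746382-11746681 plus strand: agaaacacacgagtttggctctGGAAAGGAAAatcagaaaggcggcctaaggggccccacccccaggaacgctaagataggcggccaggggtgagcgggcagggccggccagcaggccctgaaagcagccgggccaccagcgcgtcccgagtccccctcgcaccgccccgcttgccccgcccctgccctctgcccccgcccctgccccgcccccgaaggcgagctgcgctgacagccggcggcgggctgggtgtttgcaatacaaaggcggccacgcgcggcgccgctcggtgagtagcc
NFKBIZ chr3:101849264-101849563 plus strand: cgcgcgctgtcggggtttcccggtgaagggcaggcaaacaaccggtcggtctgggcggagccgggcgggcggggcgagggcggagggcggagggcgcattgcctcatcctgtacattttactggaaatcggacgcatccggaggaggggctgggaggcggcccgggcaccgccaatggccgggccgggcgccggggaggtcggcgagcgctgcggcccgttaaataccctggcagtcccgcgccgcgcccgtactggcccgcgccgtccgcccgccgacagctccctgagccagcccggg
PRDM1 chr6:106086086-106086385 plus strand: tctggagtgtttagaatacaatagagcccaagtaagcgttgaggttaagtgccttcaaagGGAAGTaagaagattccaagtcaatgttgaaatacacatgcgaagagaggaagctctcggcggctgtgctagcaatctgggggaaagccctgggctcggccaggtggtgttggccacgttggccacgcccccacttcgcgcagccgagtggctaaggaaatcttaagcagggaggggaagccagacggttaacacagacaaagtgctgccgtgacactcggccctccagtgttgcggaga
CANX chr5:179698717-179699016 plus strand: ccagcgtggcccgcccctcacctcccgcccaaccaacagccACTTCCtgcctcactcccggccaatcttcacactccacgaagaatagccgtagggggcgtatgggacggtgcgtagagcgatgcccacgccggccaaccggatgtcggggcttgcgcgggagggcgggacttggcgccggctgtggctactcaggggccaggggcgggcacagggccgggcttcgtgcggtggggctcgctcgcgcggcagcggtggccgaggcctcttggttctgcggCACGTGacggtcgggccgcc
WIPF1 chr2:174597755-174598054 minus strand: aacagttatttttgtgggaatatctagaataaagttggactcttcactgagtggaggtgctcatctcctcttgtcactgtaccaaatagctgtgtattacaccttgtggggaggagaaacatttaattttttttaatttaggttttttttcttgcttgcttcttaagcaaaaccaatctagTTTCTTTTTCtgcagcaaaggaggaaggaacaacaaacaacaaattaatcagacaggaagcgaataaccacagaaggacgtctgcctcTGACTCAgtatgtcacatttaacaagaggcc
AIM2 chr1:159076717-159077016 minus strand: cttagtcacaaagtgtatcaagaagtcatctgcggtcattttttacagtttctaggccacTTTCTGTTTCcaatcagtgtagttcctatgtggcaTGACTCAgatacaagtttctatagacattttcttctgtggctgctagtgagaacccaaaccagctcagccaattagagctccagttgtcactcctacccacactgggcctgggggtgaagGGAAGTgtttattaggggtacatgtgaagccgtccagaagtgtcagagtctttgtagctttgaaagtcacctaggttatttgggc
RSAD2 chr2:6877527-6877826 plus strand: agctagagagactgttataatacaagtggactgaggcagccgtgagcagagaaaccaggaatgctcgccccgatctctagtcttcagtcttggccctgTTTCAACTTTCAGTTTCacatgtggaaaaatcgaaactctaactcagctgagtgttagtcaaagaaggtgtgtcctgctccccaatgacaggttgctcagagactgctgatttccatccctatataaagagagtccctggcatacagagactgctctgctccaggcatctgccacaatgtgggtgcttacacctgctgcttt

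The windows at SQSTM1 and NFKBIZ, which had no match to these motifs, were rich in G and C (73% and 74.7%). Of the windows with a match, those of LPIN1, CANX and PRDM1 had 71.3%, 72% and 54.3% G and C, and those of WIPF1, AIM2 and RSAD2 had 38%, 45% and 48.3%. RSAD2 encodes viperin, an interferon-induced antiviral enzyme, and its window held a GAAA pair with 2 bases between and one with 3 bases between, which run into each other, with the region's summit inside the window. Fold enrichment there was 5.38 in replicate 1 and 3.65 in replicate 2. At AIM2, a cytosolic DNA sensor, the region over the start had a fold enrichment of 5.71 in replicate 1 and 5.26 in replicate 2. The region at WIPF1, which encodes an actin-regulating partner of the Wiskott-Aldrich protein, was stronger, at 7.24 and 14.5. Among the windows shown, only that of RSAD2 held its region's summit, so at AIM2 and WIPF1 the signal peaked outside the window with the GAAA pair. The WIPF1 region was not among those counted below as lying at an internal start.

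Fold enrichment (ChIP signal at the summit over the local background, as the authors' peak caller gave it) had a median of 3.98 over the 8140 gene-body regions in replicate 1, with the middle of the distribution running from 3.13 to 5.28 (lower and upper quartile). In replicate 2 the median was 4.20 and the quartiles were 3.28 and 5.68. The distal intergenic regions had nearly the same medians, 4.01 and 4.19. Regions at coding gene ends were higher, with medians of 5.34 and 8.04. Gene-body regions with a fold enrichment of at least 5 in both replicates numbered 1611 (19.8%), and 82 reached 10 in both, against 53.2% and 841 of the gene-end regions. When all shared regions were ranked by the worse of their ranks in the replicates and cut into 5 equal groups, gene-body regions made up 12.4% of the strongest group, then 23.6%, 27.4%, 30.7% and 32.1% of the weakest. The gene-end share ran the other way, from 60% to 11.6%. Gene-body regions were therefore mostly of modest height, like those between genes.

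The positions of the replicates' summits can also be compared. The median gap between the replicates' summits was 52 bp, and 6064 regions (74.5%) had summits within 100 bp of each other, against 76.9% of all shared regions and 80.8% of the gene-end regions. Region length had a median of 659 bp, and 290 regions (3.56%) joined more than 2 peaks. Across the gene-body regions, the fold enrichments of the replicates had a Spearman correlation of 0.57 (n = 8140 regions of the same 2 libraries, which are not independent replicates). On the log2 scale, replicate 2 exceeded replicate 1 by a median of 0.10, with 58.1% of gene-body regions higher in replicate 2. For gene-end regions the same difference was 0.60, with 88.8% higher in replicate 2, and for intergenic regions 0.08. Replicate 2 was also the deeper ChIP library (46474586 against 38568845 total tags, per the file headers). The part of depth in these differences was not tested.

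Regions just inside and just outside the conditions can be set side by side. The 224 members between 10 and 11 kb from a coding gene end had median fold enrichments of 3.84 and 4.10, against 4.24 and 4.30 for the 238 excluded regions between 9 and 10 kb. On the lncRNA side, 82 members lay 1 to 1.5 kb from an lncRNA end (medians 3.97 and 4.51), and 111 otherwise eligible regions lay 0.5 to 1 kb away (4.44 and 4.88). Intervals of the same location with a peak in replicate 1 alone numbered 2876 and had a median of 3.11. Those with a peak in replicate 2 alone numbered 2141 and had a median of 3.15. The single-replicate intervals thus had lower medians than the members, but the rule itself required members to be called in both replicates.

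**Figure D1:**
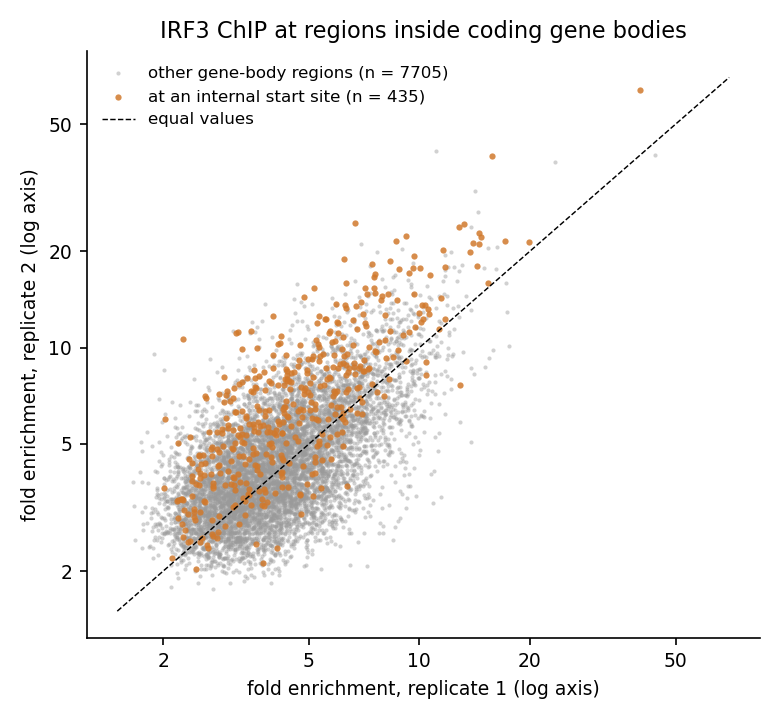
Fold enrichment of each gene-body region in replicate 1 (x axis) and replicate 2 (y axis), both on log axes without units. Orange points are 435 regions within 1 kb of an annotated internal coding start site, grey points the other 7705 (including those of genes whose start sites were not in the table), and the dashed line marks equal values. Most orange points lie above the line.

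Every host gene of 6714 gene-body regions had at least 1 start site in the RefSeq table. The other 1426 regions (436 of them on chromosome 8) could not be placed in this way. Whether the table held all starts of these genes was not checked, so the shares below cover listed starts only. Of the 6714, 435 (6.48%, exact 95% interval 5.90% to 7.09%) had their summit within 1 kb of an annotated coding start site inside the gene. The share fell from 13.5% in the strongest of 5 equal groups of gene-body regions to 4.22% in the weakest. Of the strongest 100 gene-body regions, 82 lay in host genes with a start site in the table. Of the strongest 100 regions counted among the 6714 only, 37 lay at an internal start. The label distal therefore holds against gene ends for all members, but not against start sites for these 435. Other members may lie at starts that the table lacks. The summits at start sites were not spread evenly over the 1 kb on either side. Their median position was 76 bp downstream of the start (quartiles 131 bp upstream and 163 bp downstream), and 291 of 435 were downstream. The bin from 0 to 250 bp downstream held 238 summits, against a median of 8 and 6.5 summits per bin at 3 to 5 kb upstream and downstream.

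**Figure D2:**
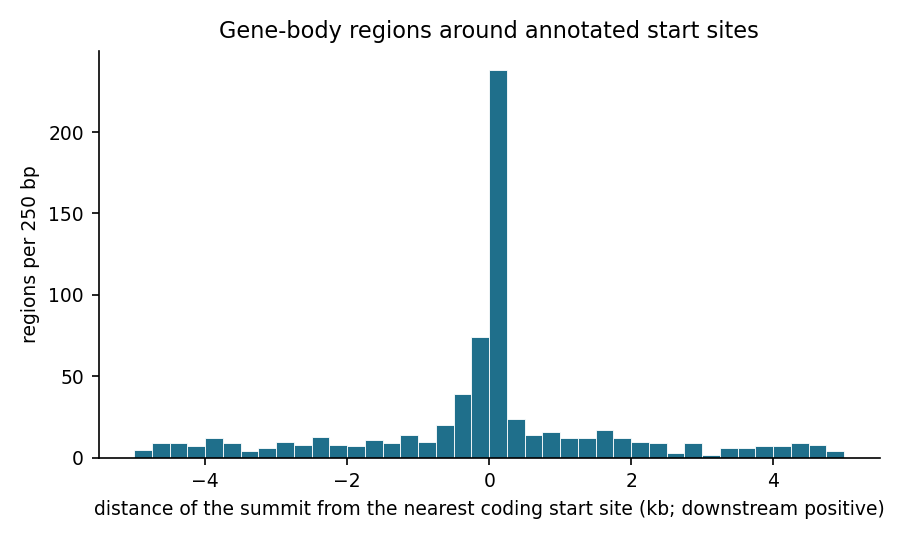
Number of gene-body regions per 250 bp (y axis) by the signed distance in kb of the summit from the nearest coding start site (x axis, downstream positive). The highest bar, 238 regions, is the bin just downstream of the start site.

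Regions at internal start sites had values between those of the other gene-body regions and those at gene ends. Their median fold enrichment was 4.35 in replicate 1 and 6.42 in replicate 2, against 3.96 and 4.12 for the 6279 regions away from listed start sites. They were longer, with a median of 1009 bp against 648 bp. As at gene ends, most (84.4%) were higher in replicate 2, with a median log2 difference of 0.52 against 0.08 for the regions away from starts. A fold enrichment of at least 5 in both replicates was reached by 38.4% of the regions at internal starts and by 18.3% of those away from them.

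Seen from the start sites, 526 of 2421 internal coding start sites (21.7%) had the summit of a shared region within 1 kb. They belonged to 393 of 1516 genes. Of 17169 start sites within 1 kb of a coding gene end, 9548 (55.6%) had one that close. Internal start windows that lay wholly inside a gene-body region (395 windows of 306 genes, some overlapping) had a median of 65.3% G and C and an observed-to-expected CpG ratio of 0.79. Internal windows with no gene-body summit within 1 kb (1885 windows) had 49.3% and 0.30. The covered internal windows thus resembled the windows at gene ends, which had 63.3% and 0.78.

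Motif content of the covered windows was compared with the other windows of the same 300 bases, on both strands. A GAAA pair with 2 bases between was found in 19 of 395 covered windows (4.81%), in 4.46% of unoccupied internal windows, in 3.03% of gene-end windows and in 3.17% of all 22199 coding windows. A GAAA pair with 3 bases between was found in 1.52% of covered windows, 4.03% of unoccupied ones and 2.56% of all. For the ETS-IRF composite the shares were 1.27%, 2.97% and 2.52%. The GAAA pair with GT between, whose matches also count for any 2 bases, was in 3 covered windows (0.76%) and in 0.22% of all windows. The composite with GT between was in 0 covered windows and in 0.23% of all. Full GAAA repeats were thus present in a small part of the covered windows. For the 3-base spacing and the composite this part was smaller than in unoccupied windows, which had less G and C. The median summit at internal starts lay 76 bp downstream of the start, beyond the end of these windows. Many covered windows therefore left out their region's summit, and whether the bases at those summits hold GAAA repeats was not tested.

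Motifs of other promoter factors, most of them with fewer fixed bases than the GAAA pair, were counted in the same way. The GC box GGGCGG was in 59.2% of covered windows, 24.0% of unoccupied internal windows and 56.3% of all windows. CCAAT was in 30.6%, 33.7% and 34.7% of them. The ETS core GGAAGT was in 27.6% of covered, 19.7% of unoccupied and 23.9% of all windows, and CACGTG in 9.11%, 4.4% and 8.34%. TGACGTCA was in 2.78%, 1.06% and 2.26%. TGANTCA was in 7.09% of covered, 11.5% of unoccupied and 6.15% of all windows. Base content differed between these sets, and its part in the motif shares was not tested. For these motifs too, many covered windows left out the summit, so the shares describe start windows and not the bases at the summits.

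The strongest gene-body region lay in SQSTM1, which encodes the autophagy receptor p62. Its fold enrichment was 39.9 in replicate 1 and 64.0 in replicate 2, its summit was 71 bp from the start shown above, and it lay 14.1 kb from the nearest coding gene end. The region in TEX14, a gene known for germ-cell bridges, had 43.8 and 39.9 and covers an annotated pseudogene, LOC124904154. In BCOR, which encodes a corepressor of BCL6, the region of 4.13 kb had 23.4 and 38.1. Its summit was 48.8 kb from the nearest start in the table, which may lack other starts of the gene. AMD1, a polyamine synthesis enzyme, had 15.7 and 39.7 with the summit 64 bp from an internal start. Both replicates ranked these 4 regions near the top of all shared regions. SQSTM1 and AMD1 lay at internal start sites, and the start sites of TEX14 were not in the table.

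Next in order was CADM1, an immunoglobulin-like adhesion molecule, at 14.5 and 26.5, with the region 88.4 kb from a gene end. The stress-induced factor gene ATF3 had 14.2 and 30.8 at 6168 bp upstream of the nearest start in the table, with the same limit as for BCOR. CIC, a transcriptional repressor, had 14.5 and 22.8 at an internal start, and PGBD2, a transposase-derived gene, had 13.8 and 23.8. CADM1 and PGBD2 had no listed starts, so whether their regions lay at a start could not be told. The regions in ING5, AFF1, KDM4C and RNF220 all lay at internal starts. ING5, a reader subunit of histone acetyltransferase complexes, had 17.1 and 21.6. AFF1, a scaffold of the super elongation complex, had 19.9 and 21.5, and KDM4C, a histone H3 lysine demethylase, had 14.0 and 21.2. The ubiquitin ligase gene RNF220 had 14.7 and 22.2.

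LPIN1, a phosphatidate phosphatase, had 13.2 and 24.4, with a region of 5.39 kb that joined 4 peaks. NFKBIZ, an atypical nuclear inhibitor of the NF-kB family, had 14.5 and 21.1 with the summit 76 bp from the start. The last of the first 15 lay in ITPKB, an inositol trisphosphate kinase gene of lymphocytes, at 16.3 and 20.7. Its region covers the lncRNA gene ITPKB-IT1 and was 85.7 kb from the nearest listed coding start. In 14 of the 15, TEX14 being the exception, the value in replicate 2 was above that in replicate 1.

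A few gene-body regions differed widely between the replicates. UCK2, a uridine-cytidine kinase gene, had a region at 1.89 in replicate 1 and 9.56 in replicate 2. NR4A1, an immediate-early nuclear receptor gene, had 2.27 and 10.6 at an internal start, and ANKRD28 had 2.01 and 8.52. USP42, a deubiquitinase gene, had 11.1 and 41.1, and ASNS, the asparagine synthetase gene, had 6.68 and 24.5 at an internal start. In the other direction, PLEKHA7 had 7.22 and 2.07, TMPRSS15 8.47 and 2.49, GSE1 11.5 and 3.42, SMOC1 10.9 and 3.27, and TENM2 8.61 and 2.74. USP42 and PLEKHA7 had no listed starts. With 2 replicates, no spread can be set against the gaps between replicates.

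With regions at internal starts included, gene-body regions were denser than distal regions outside genes at each distance from a gene end. Over all eligible sequence, the density was 8.60 regions per Mb inside coding genes (947 Mb) and 5.26 per Mb outside (1564 Mb, assembly gaps included), a ratio of 1.64. Between 10 and 20 kb from the nearest coding gene end, the densities were 10.3 and 9.42 per Mb. They fell to 9.16 and 6.92 between 50 and 100 kb, and to 4.64 and 3.05 beyond 200 kb. From 10 to 100 kb together the ratio was 1.22, a span chosen after seeing the data. At 10 to 20 kb, 9.49% of the gene-body regions in genes with listed starts lay at internal starts. Densities without them were not compared with the intergenic ones, so the small gap in that class may rest on them. Median fold enrichment of the gene-body regions hardly changed with distance, from 4.01 in replicate 1 at 10 to 20 kb to 3.89 beyond 200 kb. By chromosome, the density was highest on chromosome 20 (12.1 per Mb) and chromosome 17 (10.8 per Mb), and lowest on X (5.22 per Mb), 14 (5.93 per Mb) and 13 (6.0 per Mb).

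**Figure D3:**
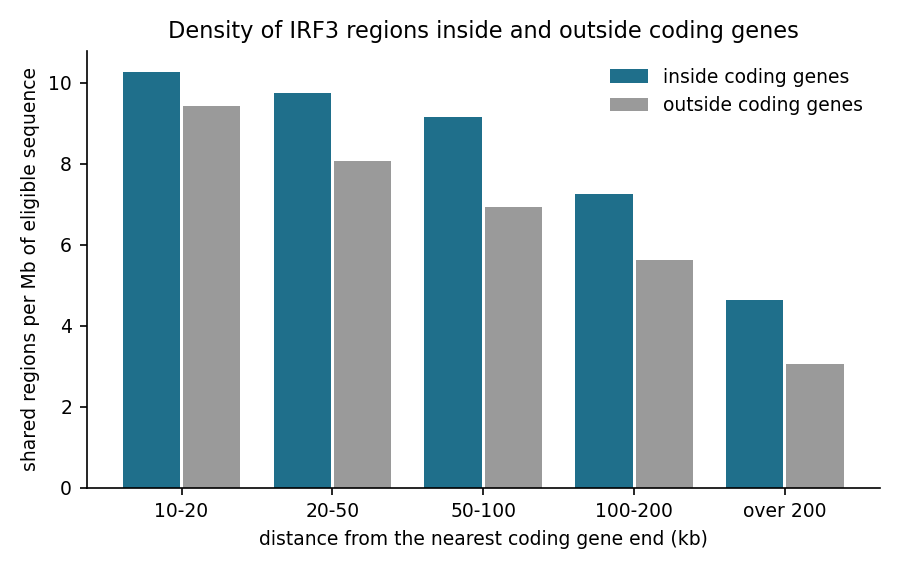
Shared IRF3 regions per Mb of eligible sequence (y axis) by distance in kb from the nearest coding gene end (x axis), inside coding genes (blue) and outside (grey). In each distance class the blue bar is the higher. The bars run from 10.3 against 9.42 per Mb at 10 to 20 kb to 4.64 against 3.05 per Mb beyond 200 kb. Regions at internal starts are included.

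Position along the gene was compared for 6809 pairs of a region and a host gene whose strand was known. The summit was nearer to the start of the gene in 52.2% of pairs. Density was 11.1 per Mb at 10 to 20 kb from the gene start and 9.62 per Mb at 10 to 20 kb from the other end. Without the regions at internal starts, these values were 9.74 and 8.88 per Mb. At 20 to 50 kb they were 10.5 per Mb from the start and 9.82 per Mb from the other end, or 9.55 and 9.06 per Mb without internal starts. From 50 to 100 kb the order was the reverse, with 9.61 per Mb from the start and 10.1 per Mb from the other end. A lean towards the gene start was thus present between 10 and 50 kb and was smaller without the internal start sites.

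Of 20037 coding genes, 10802 had any sequence that could hold such a region, and 3418 of these held at least 1 (31.6%). Hosts had a median of 99.4 kb of eligible sequence, and genes without a region 23.5 kb. Of the hosts, 1719 (50.3%) held 1 region, 648 held at least 4 (6% of the genes able to hold one), and 72 held at least 10. The host share rose with eligible length, from 4.29% of genes with up to 10 kb to 16.1%, 34.9%, 59.8% and 84.8% in the classes from 10 to 30 kb, 30 to 100 kb, 100 to 300 kb and over 300 kb. Host counts therefore have to be read against gene length. A region whose summit falls inside overlapping genes was counted for each, which applied to 110 regions.

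Genes with a shared region within 1 kb of an end held gene-body regions a little more often, in 32.4% of 6081 genes against 30.7% of 4721 others. Within classes of eligible length the gap was wider. It ran from 5.30% against 3.0% with up to 10 kb, through 37.5% against 31.4% at 30 to 100 kb, to 90.2% against 81.4% over 300 kb. The density was 10.8 regions per Mb of eligible body in genes with an occupied end and 6.65 per Mb in the others. Occupied genes had less eligible sequence (a median of 34.3 kb against 40 kb), so the pooled shares lay closer together than the shares within classes.

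**Figure D4:**
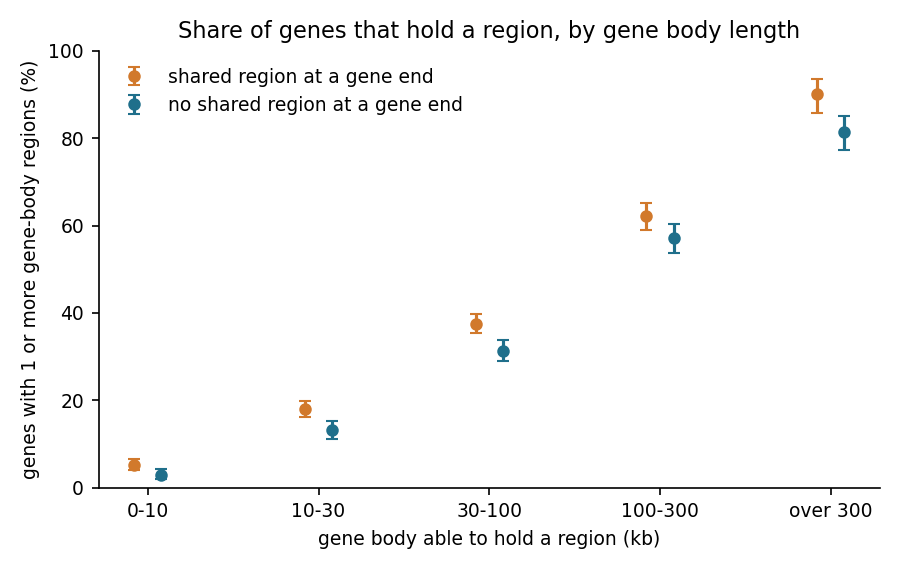
Percentage of coding genes that held at least 1 gene-body region (y axis) by the length in kb of sequence able to hold one (x axis), for genes with (orange) and without (blue) a shared region at a gene end. Bars are exact 95% binomial intervals over genes and cover counting error only. The orange points lie above the blue ones in all 5 classes, from 5.30% against 3.0% to 90.2% against 81.4%.

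HIVEP3, a zinc finger gene named for binding kappa-B-like sites, held the most regions, 22 in 466 kb of eligible body, with fold enrichments from 1.91 to 9.41 in replicate 1 and from 2.85 to 9.93 in replicate 2. CELF2, an RNA-binding splicing regulator of lymphocytes, held 21, the strongest of which reached 12.1 in replicate 2. RANBP2 is listed with 21, but its table span of 1123 kb contains other coding genes, SH3RF3 with its 17 regions among them. NSMCE2, a SUMO ligase gene on chromosome 8, held 19. KAZN, a gene of junctional scaffolding, held 18 in 1174 kb, whereas the longevity-associated forkhead factor gene FOXO3 held 17 in 105 kb. PDE4D, a cyclic AMP phosphodiesterase, held 17, CCDC88C, a Wnt pathway regulator, 16, and PTK2B, a focal adhesion type kinase of blood cells, 15. PTK2B is 1 of 7 genes tied at 15 and had the most regions per length among them. The highest fold enrichment in any of these 10 genes was 14.8, in CCDC88C in replicate 2, so the genes with most regions were not those with the strongest.

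Per length, other genes led. Among genes with at least 4 regions, OTUD5, a deubiquitinase gene, had 24.5 regions per 100 kb of eligible body (4 regions in 16.4 kb). KLHL6, a B-lineage adaptor of a ubiquitin ligase, had 22.8 per 100 kb (11 regions) and TXNDC11, an endoplasmic reticulum thioredoxin-family gene, 20.6 (9 regions). UAP1, an enzyme of hexosamine synthesis, had 20.3. BCL2L1, which encodes the survival factor BCL-XL, had 18.5 (7 regions), with fold enrichments up to 9.62 and 12.8. ERN1, which encodes the unfolded protein sensor IRE1 that activates XBP1, had 18.3 (13 regions). CHMP4B, a membrane scission subunit, had 17.4, TMEM154 16.9, RHOH, a GTPase of blood cells, 16.7, and IL5RA, a cytokine receptor subunit, 16.6. The average over all genes was 8.60 per Mb, and each of these 10 was picked as an extreme of 648 genes.

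Gene-body regions were then searched for close neighbours. Another shared region lay within 0.0125 Mb of 3903 gene-body regions (47.9%), against 39.9% of the distal intergenic ones. Runs of at least 4 shared regions at such gaps took in 14.5% of gene-body regions and 9.43% of intergenic ones. Runs of at least 4 members within 1 gene numbered 164 and held 820 of the 8140 regions. The longest was in INPP4A, a phosphoinositide phosphatase gene, with 13 regions over 60.3 kb, none at a start and with fold enrichment up to 8.37 and 14.9. ERN1 followed with 13 regions over 52.9 kb, up to 10.1 and 9.47. In ZBTB38, a methyl-CpG-binding zinc finger gene, 9 regions over 52.9 kb reached 9.79 and 22.3, and 2 of them lay at internal starts. ZNF710 had 8 regions over 51.7 kb, and NSMCE2 had 9 over 47.6 kb. Within these runs the regions were of uneven height.

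**Figure D5:**
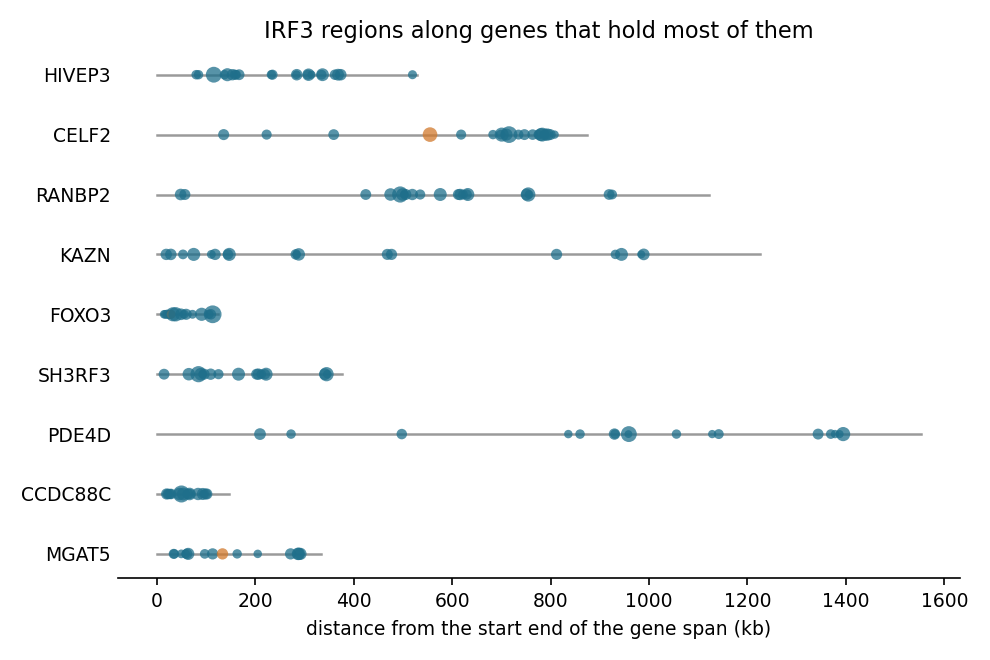
Gene-body regions (circles) along 9 of the genes that held most of them, by distance in kb from the start end of the gene span (x axis), with grey lines for the spans. Circle area grows with the geometric mean of the replicates' fold enrichments, and orange marks regions at an internal start site. The 17 regions of FOXO3 lie within its 125 kb, while the 17 of PDE4D are spread over 1553 kb.

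Gene groups were then described by the number of their genes that held a gene-body region. For each group, the share is set beside the share of all genes with the same make-up of eligible lengths, and the density beside 8.60 per Mb over all genes. The density is not matched for length. Over all genes it was 10.6 per Mb with 30 to 100 kb of eligible body and 6.39 per Mb with over 300 kb. The lists were chosen with earlier results of these data known, and the counts carry no test. In 16 of 17 lists the host share was above the 31.6% of all genes, in 15 it was above the share at the same lengths, and in 14 the density was above average. For most lists the exact 95% interval of the share took in the share at the same lengths. Of the lists described below, the interval lay above that share for plasma cell and myeloma genes and lymphoid transcription factor genes. It also did for protein secretion genes and for kinase and phosphoinositide genes. For all other lists described below, it took in the share at the same lengths.

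Plasma cell and myeloma genes held a region in 17 of 24 genes able to (70.8%, 33.7% at the same lengths), at 22.2 regions per Mb. CADM1 led, with 8 regions. PRDM1, which encodes the plasma cell master factor BLIMP1, held 4, and the strongest, at the start shown above, had 14.3 and 18, while the other 3 reached at most 4.08 in replicate 1 and 8.11 in replicate 2. NCAM1 (CD56, often present on myeloma cells) had 10.2 and 12.9 at its best region, and SDC1, the plasma cell surface marker CD138, had 8.83 and 12. FNDC3B and WWOX, each with 13 regions, are named for that number after it was seen.

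B cell identity genes held regions in 18 of 31 (58.1%, 48.8% at the same lengths), at 14.9 per Mb. The best lay in RASGRP3, a Ras activator downstream of the B cell receptor, at 15.4 and 15.9 at an internal start. PLCG2, the phospholipase of B cell receptor signalling, held 9 regions (best 9.02 and 10.2), TCF4 8 (7.08 and 9.58) and FOXP1 15 (8.96 and 8.68). Lymphoid transcription factor genes held regions in 27 of 36 (75%, 49.1% at the same lengths), at 21.0 per Mb. FLI1 and ETS1, neighbouring ETS family genes, had best regions at 11.9 and 14.5 and at 9.59 and 18.4, and the one in ETS1 covers the microRNA gene MIR6090. ZBTB38 had 9.17 and 22.3, and RUNX1 had 8.05 and 12.6, both at internal starts. FLI1 and ETS1 had no listed starts, so whether their regions lay at a start could not be told.

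Among the IRF genes, 3 had eligible sequence and 1, IRF2, held regions. IRF2 encodes a factor that competes with IRF1 at response elements. Its 9 regions ranged from 2.98 to 8.28 in replicate 1 and from 3.09 to 9.85 in replicate 2, and they lay between 16494 and 39637 bp from the nearest coding gene end. NF-kB pathway genes held regions in 10 of 22 (45.5%, 26.2% at the same lengths), at 24.1 per Mb. After NFKBIZ came TAB2, an adaptor of the kinase TAK1, with 6 regions (best 10.2 and 11.5), and TRAF2, a receptor adaptor, at 8.04 and 7.34.

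Of the cytokine receptor and JAK-STAT genes, 11 of 32 held regions (34.4%, 25.4% at the same lengths), at 18.5 per Mb. JAK1, a kinase of interferon and interleukin-6 receptors, held 7, the best at an internal start with 7.54 and 15.4. IL6R, the receptor for the myeloma growth factor interleukin-6, held 5, with 5.52 and 5.70 at the best. IL2RA had 4.81 and 5.32, and STAT5B had 4.34 and 5.02. JAK1 was thus the only one of the 4 whose best region exceeded 10 in either replicate.

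Genes of nucleic-acid sensing pathways and interferon-stimulated genes came next. Nucleic-acid sensing genes held regions in 7 of 21 (33.3%, 22.3% at the same lengths), 16 regions in all, at 21.7 per Mb. IRAK2, a Toll-like receptor kinase, had 4 (best 5.82 and 7.49), RNF135, a ligase acting on RIG-I, had 1 at 7.61 and 7.20, and ADAR, the RNA editing enzyme, had 2, the best at an internal start with 5.13 and 9.42. NLRC5 had 3 (best 4.84 and 6.01). Interferon-stimulated genes held regions in 12 of 37 (32.4%, 20.5% at the same lengths), at 12.2 per Mb, and none held more than 2. MX2, an antiviral GTPase, had 10.1 and 7.41, SP100, a nuclear body protein gene, 4.49 and 7.06, and the overlapping genes SP140 and SP110 shared 1 region at 3.85 and 5.16. The host shares of the nucleic-acid sensing and interferon-stimulated lists were close to the 31.6% of all genes. Each was above the share at the same lengths, but its exact 95% interval took in that share. An excess over genes of the same length is therefore not shown for either list.

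Secretory genes were the densest list after the 3 IRF genes. Protein secretion and endoplasmic reticulum genes held regions in 17 of 32 (53.1%, 32.0% at the same lengths), at 27.2 per Mb. TRAM2, a translocon-associated protein gene, held 7 (best 9.92 and 12.6). CANX, which encodes calnexin, had 8.65 and 21.5 at the start shown above. ST6GAL1, a sialyltransferase, had 8.12 and 10.8, and ERN1 had 10.1 and 9.47. Adhesion and integrin genes held regions in 14 of 27 (51.9%, 43.9% at the same lengths), at 17.7 per Mb, led by CADM1 and NCAM1, then the phosphatase genes PTPRJ (6.24 and 8.79) and PTPRC, the leukocyte marker CD45 (8.84 and 7.25).

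Signalling genes with long bodies held regions often. Kinase and phosphoinositide genes did so in 33 of 40 (82.5%, 54.1% at the same lengths), at 14.9 per Mb, led by PLCG2, INPP4B (9.25 and 9.08), PIK3CG (13.8 and 8.64) and DGKZ (6.16 and 9.92). Chromatin regulator genes did so in 25 of 40 (62.5%, 51.0% at the same lengths), at 12.1 per Mb. KDM4C led, followed by the remodeller subunit gene ARID1B (12.2 and 19.9) and the demethylase genes KDM2B (8.35 and 13.8) and KDM2A (8.05 and 10.6).

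Markers of other cell types gave lower densities in part. Neuronal and synaptic genes held regions in 36 of 40, which is 90.0% against 82.3% of genes as long. Their density was 4.12 regions per Mb, below the average and below the 6.39 per Mb of all genes with over 300 kb of eligible body. Their best regions lay in CNTN4 (8.78 and 12.1), NRXN3 (12 and 10), DLGAP1 (7.0 and 9.16) and SYT1 (8.33 and 8.91). Muscle and cardiac genes held them in 11 of 23 (47.8%, 51.5% at the same lengths), at 4.05 per Mb, with MYOM2 (10.1 and 10.9) and NEB (8.80 and 9.26) ahead of DMD (8.83 and 8.27) and SGCD (6.92 and 6.63). T cell marker genes held them in 7 of 18 (38.9%, 27.6% at the same lengths), at 12.6 per Mb, led by CAMK4 (5.08 and 8.27), CD247 (4.97 and 6.52), SKAP1 (4.08 and 6.03) and CD28 (4.93 and 4.25). Of 10 myeloid marker genes able to hold one, 0 did, which leaves an exact 95% upper limit of 30.8%, above the 23.8% of genes as long.

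Some gene-body regions also overlapped other annotated genes. Spans of lncRNA genes were overlapped by 542 (6.66%), pseudogenes by 46, transcribed pseudogenes by 12 and microRNA genes by 8. Whether a region falls in an exon or an intron was not analysed here.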

How the data were processed

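Chromatin of MM1.S cells was immunoprecipitated for IRF3 and sequenced, with input as control, per the labels' protocols. The submitters' processing notes name GRCh38, MACS2 2.1.1, deepTools 3.3.1, SAMtools 1.2, Picard 2.6.0 and the aligner BWA 0.7.15, whereas the file headers name MACS 2.1.2. Peaks were called by the authors for each replicate against its input at a q-value cutoff of 0.05, per the file headers, which gave 41880 and 41666 peaks. The deposited lists give pileup signal at the summit, fold enrichment as a ratio, and −log10 of p and q-values. The headers give 38568845 and 46474586 ChIP tags and 58025919 and 60348415 input tags, of 74 bp.

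Peaks sharing at least 1 bp were merged, the summit was taken from the peak with the higher fold enrichment, and gene spans, biotypes, strands and start windows came from RefSeq GRCh38.p14 tables. All 574 listed genes matched. Eligible sequence was counted base by base with the members' own rule. Intervals are exact Clopper-Pearson intervals at 95% and cover counting error only. The rule was tested on simulated peaks and genes. Python 3.11.15, numpy 2.4.6, pandas 2.3.3, scipy 1.17.1 and matplotlib 3.10.9 were used. The planned motif search around summits needs a genome, so RefSeq start windows were searched instead, with the CCAAT box, the GC box and the cyclic AMP response element added after the files were seen. Named genes are the first 15 regions by the worse of their ranks, the 10 genes with most regions, the 10 with most per 100 kb among those with at least 4, the 5 longest runs, up to 4 hosts per list and the 5 most extreme replicate ratios each way, and others are said to be chosen after their values were seen. The members and lists were chosen with earlier results of these data known. The result of 1 of the 17 lists and 1 gene of another are not reported here.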

Additional observations from a re-analysis of the deposited data

How the results depend on the processing

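With 1 group, 2 replicates and no test, the values describe these libraries only. Of 170 recomputed counts of list genes holding a region, 148 stayed within 1.5 times the reported count. Requiring a fold enrichment of at least 5 in both replicates left 1611 regions (16.6% of shared regions) in 1201 genes, with medians of 6.64 and 7.20 and 1.70 regions per Mb, and moved 13 of 17 list counts. A −log10 q of at least 5 in both gave a share of 24.0%, medians of 4.27 and 4.56 and 7.12 per Mb. Gene-end distances of 5 and 20 kb gave shares of 29.5% and 19.7%, and 20 kb gave a density ratio to intergenic sequence of 1.69. Dropping the lncRNA condition gave a share of 26.2% and a ratio of 1.60. The ratio from 10 to 100 kb, added after seeing the data, was 1.22. A peak in a single replicate sufficing, that is leaving out each replicate in turn, gave 10407 to 11246 regions, shares of 25% to 26.9%, medians of 3.66 in replicate 1 and 3.86 in replicate 2, densities of 11 to 11.9 per Mb, ratios of 1.57 to 1.61 and 3859 to 4040 host genes. The host share of genes with an occupied end exceeded that of others by 1.65 percentage points over all genes, and by 4.83, 6.16, 5.02 and 8.71 points in the 4 classes of eligible length from 10 kb up. Gaps of 5 and 25 kb put 28.1% and 64.1% of regions in clusters. The cause of these shifts was not tested, apart from those that follow from the stricter or looser rule itself. Motif windows of 100, 200 and 500 bp around summits were not run for want of a genome. No paired analysis was possible because only the ChIP samples have values here and no groups are compared.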
